A study of Rattus norvegicus with 12 samples.

Results

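Collagen chain genes are the genes whose single symbol reads Col, a number, the letter a and a number. There were 41 of them among 14218 genes on the array. Of these, 14 had more than 1 probe set, and the one brightest on average was used. By the structure their proteins form, 11 were fibrillar, 8 network-forming, 9 fibril-associated and 13 of other kinds. A further grouping of 7 cartilage collagens cuts across these classes.

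Expression was measured as log2 signal on 12 single-colour rat arrays from 6 lines, with 2 arrays per line. A1 and A2 were labelled induced pluripotent stem (iPS) cells of the FHH strain. DAC2 and DAC8 were labelled embryonic stem (ES) cells, with no strain given, and REF1 and REF2 were labelled FHH embryonic fibroblasts (EF) from e14.5 embryos. RNA came from cells 5 days after passage for iPS and ES and 6 days for EF. The labels record 2i medium for iPS and ES cells and MEF medium for fibroblasts. The iPS lines were grown, per the labels, on a feeder layer of mitomycin-treated mouse fibroblasts. For the iPS and ES groups they list Nanog, Sox2, Oct4 and the surface antigen SSEA-1 as positive, without saying how this was measured, and they name no transgene. Nothing in them says whether paired arrays of a line are separate cultures, so the spread behind every p-value here may be technical.

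Collagens are extracellular proteins whose chains wind into a triple helix built from repeats that begin with glycine. Fibrillar chains assemble into the striated fibrils of skin, tendon, bone and cartilage. Network chains form sheets, of which type IV in basement membranes is the best known. Fibril-associated chains decorate the surface of fibrils. Fibroblasts are a main source of types I and III. Basement membrane collagen appears early in the embryo.

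The labels were checked with marker lists, because lines under 1 label were unlike. Of 8 fibroblast markers 7 lay at or above 5 in DAC8, 8 in REF1, 1 in DAC2, 2 in REF2 and 4 in each iPS line. The summed level of that list (log2 of the summed linear signal) was 14.26 to 14.31 in the arrays of DAC8 and REF1. It was 6.97 to 7.70 in those of DAC2 and REF2, and 9.76 to 9.98 in those of A1 and A2. Of 5 measured markers of ES-like epithelial cells 5 lay at or above 5 in DAC2 and in REF2, 0 in A1 and 1 in each of the other lines. The summed level of this list was 13.26 to 13.47 in DAC2 and REF2 and 6.67 to 7.88 elsewhere. All 6 neural markers lay at or above 5 in A1 and A2, 4 in each of DAC8 and REF1 and 1 in each of DAC2 and REF2. Their summed level was 13.87 to 13.94 in A1 and A2, against 8.45 to 9.53 elsewhere. Postn, a fibroblast matrix protein, measured 13.64 and 13.58 in DAC8 and 13.71 and 13.76 in REF1 and lay below 5 in the other 8 arrays. The arrays labelled DAC8 thus went against an ES label, those labelled REF2 against a fibroblast label, and those labelled A1 and A2 lacked the ES-like epithelial markers. Every line is therefore described on its own, and each array kept its labelled group. In these bulk samples, fewer cells of a type and less RNA per cell cannot be told apart.

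Regulatory sequence is shown for collagens with different line patterns. RefSeq promoter sequences on GRCr8 matched 32 of the 41 genes by gene identifier. Capitals mark a match, on either strand, to CCAAT (the CCAAT box), GGGCGG (the core of the GC box), TATAAA (the TATA box) or ACAAAG (a Sox-type motif). All sequences read 5′ to 3′ along the named gene's strand. The first is the whole stretch of 76 bases between the starts of Col4a1 and Col4a2, neighbours read in opposite directions (chr16:84885521-84885596, plus strand, the strand of Col4a1). The others are the 250 bases before the start of Col1a2 (chr4:33518307-33518556, plus strand), Col5a2 (chr9:55090152-55090401, minus strand) and Col9a1 (chr9:34081114-34081363, plus strand).
Col4a1 and Col4a2: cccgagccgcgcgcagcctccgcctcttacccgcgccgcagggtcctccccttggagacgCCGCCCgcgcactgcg
Col1a2: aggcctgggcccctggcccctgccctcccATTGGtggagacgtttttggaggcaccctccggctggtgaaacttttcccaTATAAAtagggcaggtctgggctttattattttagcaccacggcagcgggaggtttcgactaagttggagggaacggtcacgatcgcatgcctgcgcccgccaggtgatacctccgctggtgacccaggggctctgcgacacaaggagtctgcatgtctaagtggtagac
Col5a2: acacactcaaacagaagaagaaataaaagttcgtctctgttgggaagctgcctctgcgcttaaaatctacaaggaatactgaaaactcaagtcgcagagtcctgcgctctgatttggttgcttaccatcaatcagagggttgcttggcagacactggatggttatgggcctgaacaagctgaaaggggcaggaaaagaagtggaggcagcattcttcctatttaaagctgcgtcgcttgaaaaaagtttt
Col9a1: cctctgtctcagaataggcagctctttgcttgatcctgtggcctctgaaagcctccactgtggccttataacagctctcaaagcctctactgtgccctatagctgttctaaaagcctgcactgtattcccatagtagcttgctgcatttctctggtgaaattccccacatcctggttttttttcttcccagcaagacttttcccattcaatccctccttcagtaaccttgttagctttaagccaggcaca
The stretch shared by the type IV pair held a GGGCGG match and no TATAAA. Col1a2 held a TATAAA and a CCAAT match, and Col5a2 and Col9a1 held none of the 4 motifs in this window. GGGCGG was found before the start of 18 of 32 collagen genes (56.2%), against 32.4% of 27457 promoters of the same length. CCAAT was found in 9 (28.1%), against 34.3%. TATAAA was found in 4 (12.5%), against 13.1%, and ACAAAG in 3 (9.38%), against 16.0%. The 4 motifs do not overlap one another in sequence. A match describes letters and not a bound site.

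More collagen genes were above background in DAC8 and REF1 than in the other lines. A level of 5 is used as the lowest level taken as above background, and 31 of the 41 genes reached it in the mean of at least 1 line. By line, the mean lay at or above 5 for 25 genes in DAC8, 24 in REF1, 12 in A1, 14 in A2, 12 in DAC2 and 11 in REF2. For the 11 fibrillar genes the counts in that order were 10, 10, 5, 6, 3 and 2. Over all probe sets, the share at or above 5 was 53.6% to 54.6% by array. With both arrays required, 9 genes reached 5 in DAC8 and REF1 and in no other line: Col1a1, Col2a1, Col3a1, Col6a2, Col8a1, Col8a2, Col12a1, Col14a1 and Col27a1. Another 3, Col4a5, Col5a2 and Col11a1, reached it in DAC8, REF1 and both iPS lines but in neither DAC2 nor REF2. Col9a1 was the 1 gene at that level in A1 and A2 alone, and Col26a1 the 1 gene in DAC2 and REF2 alone. Col4a2, Col5a1, Col6a1, Col9a2, Col16a1 and Col18a1 reached it in all 6 lines, and 11 genes in none. These are levels of different probe sets, so they rank lines within a gene and not genes against each other. How many of all genes show these line patterns, or do not overlap between lines, was not counted.

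Types I and III, the main fibrillar collagens of connective tissue, had their high level in DAC8 and REF1 alone. Col1a1 measured 4.41 and 4.29 in A1, 4.50 and 4.19 in A2, 4.74 and 5.10 in DAC2, 4.31 and 4.85 in REF2, 12.18 and 12.47 in DAC8 and 13.04 and 12.97 in REF1. Its partner chain in type I, Col1a2, measured 4.49 and 4.33 in A1, 4.36 and 4.17 in A2, 5.18 and 5.17 in DAC2, 5.03 and 4.58 in REF2, 13.37 and 13.37 in DAC8 and 13.73 and 13.80 in REF1. Col3a1, the single chain of type III, measured 3.56 and 3.47 in A1, 3.76 and 3.98 in A2, 4.56 and 4.89 in DAC2, 4.61 and 4.74 in REF2, 12.94 and 12.95 in DAC8 and 13.24 and 13.24 in REF1. The 4 arrays of DAC8 and REF1 lay above the other 8 for all 3 genes, with no overlap, and the other 8 lay between 3.47 and 5.18. All 4 iPS arrays lay below 5 for each of the 3, although the labels record mouse feeder fibroblasts under these lines. How far mouse RNA binds these rat probe sets was not tested.

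Chains of types V and XI join types I and II in mixed fibrils and set their diameter, and 3 of them, Col5a1, Col5a2 and Col11a1, had a middle level in the iPS lines. Col5a2 measured 9.28 and 9.26 in A1, 9.22 and 9.24 in A2, 4.52 and 4.55 in DAC2, 4.39 and 4.49 in REF2, 12.63 and 12.78 in DAC8 and 12.79 and 12.98 in REF1. It was highest in DAC8 and REF1, lower in A1 and A2 and below 5 in DAC2 and REF2, and the 3 pairs of lines did not overlap. Its partner Col5a1 measured 7.90 and 7.90 in A1, 8.01 and 8.05 in A2, 7.37 and 7.32 in DAC2, 6.79 and 6.86 in REF2, 11.57 and 11.30 in DAC8 and 11.98 and 11.95 in REF1. The same order held, with a smaller gap between the iPS lines and DAC2. Col11a1, a chain of cartilage fibrils, measured 6.69 and 6.74 in A1, 6.60 and 6.59 in A2, 4.56 and 4.16 in DAC2, 4.80 and 5.00 in REF2, 11.21 and 10.91 in DAC8 and 11.55 and 11.58 in REF1. Again the iPS arrays lay between the other pairs, and 1 of the 4 arrays of DAC2 and REF2 reached 5.00. The other 2 probe sets of Col11a1 were also highest in DAC8 and REF1, but lay below 5 in all iPS arrays, so the iPS level of this gene rests on 1 probe set.

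Among the remaining fibrillar genes, Col5a3, a less common type V chain, measured 5.21 and 5.24 in A1, 4.95 and 5.20 in A2, 4.44 and 4.47 in DAC2, 4.24 and 4.26 in REF2, 6.38 and 5.91 in DAC8 and 8.68 and 8.78 in REF1. REF1 stood above DAC8 for this gene, and DAC8 above the rest. Col2a1, the chain of cartilage fibrils, measured 3.82 and 4.43 in A1, 4.27 and 4.48 in A2, 3.08 and 3.26 in DAC2, 3.12 and 2.80 in REF2, 5.79 and 6.19 in DAC8 and 6.81 and 6.44 in REF1. It reached 5 in DAC8 and REF1 only, and its other 2 probe sets stayed below 5 in all lines. Col27a1, a short fibrillar chain of cartilage, had line means of 6.63 in DAC8 and 6.98 in REF1 and below 5 elsewhere. Col24a1, another short fibrillar chain, was lowest in DAC2 (mean 2.71) and REF2 (2.94), and its highest mean was 5.37, in A2. Col11a2, a further type XI chain, lay between 5.12 and 5.33 in all lines.

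**Figure D1:**
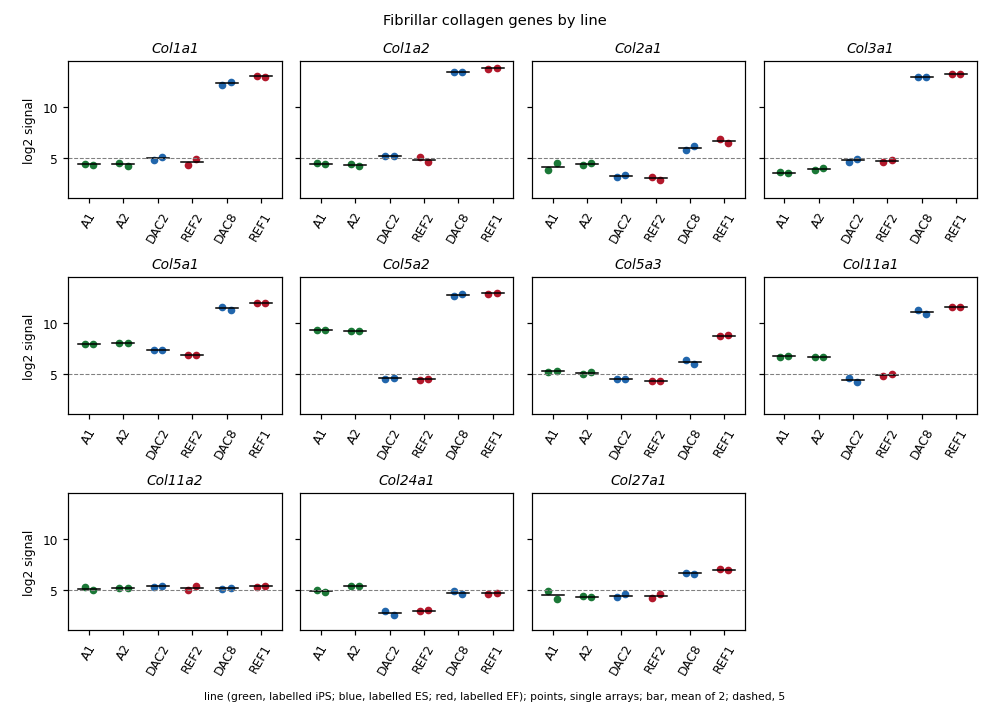
Log2 signal (vertical axis) of the 11 fibrillar collagen genes in each line (horizontal axis). Points are single arrays, coloured by label (green iPS, blue ES, red EF), bars the mean of 2 arrays and the dashed line the level of 5. Col1a1, Col1a2 and Col3a1 are high only in DAC8 and REF1, and Col5a2, Col5a1 and Col11a1 have a middle level in A1 and A2.

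Most network collagens that varied were high in DAC8 and REF1, and Col4a5 was also present in the iPS lines. Col4a1 and Col4a2 encode the common type IV chains of basement membranes. Col4a1 measured 4.88 and 4.83 in A1, 4.64 and 4.75 in A2, 4.79 and 5.16 in DAC2, 6.07 and 6.26 in REF2, 10.61 and 10.56 in DAC8 and 10.62 and 10.57 in REF1. Col4a2 measured 5.76 and 5.32 in A1, 5.43 and 5.45 in A2, 5.69 and 5.61 in DAC2, 5.70 and 6.03 in REF2, 11.09 and 11.17 in DAC8 and 11.32 and 11.22 in REF1. Both were high in DAC8 and REF1, without overlap. For Col4a1 the iPS and DAC2 arrays overlapped, and for Col4a2 the iPS arrays overlapped those of DAC2 and REF2. REF2 was above DAC2 for Col4a1 in both arrays, and the same held for its second probe set. Col4a5, a type IV chain of kidney and other specialised basement membranes, measured 6.68 and 7.26 in A1, 7.25 and 7.20 in A2, 3.37 and 3.25 in DAC2, 3.26 and 3.24 in REF2, 9.54 and 9.29 in DAC8 and 9.35 and 9.32 in REF1. Its order was that of Col5a2: DAC8 and REF1 highest, the iPS lines in the middle, DAC2 and REF2 below 5. Col4a6 had line means of 4.68 to 5.09.

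Type VIII chains, which build the hexagonal lattice under the corneal endothelium and also occur in vessel walls, were high in DAC8 and REF1. Col8a1 measured 4.09 and 3.75 in A1, 3.93 and 4.0 in A2, 4.10 and 4.47 in DAC2, 4.39 and 4.13 in REF2, 12.03 and 11.85 in DAC8 and 11.59 and 11.65 in REF1. Col8a2 measured 3.01 and 2.76 in A1, 2.69 and 2.97 in A2, 2.67 and 3.21 in DAC2, 2.89 and 3.34 in REF2, 11.46 and 11.51 in DAC8 and 11.97 and 11.90 in REF1. Neither reached 5 in any array of A1, A2, DAC2 or REF2. Col4a4 and Col10a1, the chain of hypertrophic cartilage, lay below 5 in all 12 arrays.

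A fibril-associated gene was the 1 collagen above background in the iPS lines alone. This gene, Col9a1, a chain of the type IX collagen of cartilage and of the vitreous of the eye, measured 8.74 and 8.58 in A1, 9.17 and 9.20 in A2, 3.15 and 3.12 in DAC2, 2.89 and 2.88 in REF2, 4.46 and 4.33 in DAC8 and 3.53 and 4.21 in REF1. All 4 iPS arrays lay above the other 8, of which none reached 5. The other type IX chains did not share this. Col9a2 measured 6.24 and 5.95 in A1, 6.43 and 6.14 in A2, 7.04 and 7.12 in DAC2, 6.80 and 7.01 in REF2, 6.71 and 6.53 in DAC8 and 7.21 and 7.17 in REF1, lowest in the iPS lines, and Col9a3 lay below 5 in all arrays. Of 4 measured chondrocyte and osteoblast markers, Acan, Matn1, Comp and Bglap, none reached 5 in an iPS line mean. The summed level of that list was 5.80 to 6.08 in the iPS arrays, 5.87 to 6.15 in DAC2 and REF2 and 7.39 to 8.61 in DAC8 and REF1. The summed level of the neural markers was highest in the same 4 arrays as Col9a1, as given above. The part of these markers in the Col9a1 level was not tested.

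Types XII and XIV, which coat fibrils in dense connective tissue, followed types I and III. Col12a1 measured 3.44 and 3.18 in A1, 3.42 and 3.22 in A2, 3.96 and 4.35 in DAC2, 3.15 and 3.52 in REF2, 11.90 and 11.73 in DAC8 and 11.88 and 12.05 in REF1. Col14a1 measured 4.10 and 4.45 in A1, 4.35 and 4.38 in A2, 4.41 and 4.79 in DAC2, 4.29 and 4.58 in REF2, 7.94 and 7.64 in DAC8 and 7.39 and 7.15 in REF1. Both were high in DAC8 and REF1 only, without overlap. Col16a1, a minor fibril-associated chain, measured 6.37 and 6.30 in A1, 6.32 and 6.42 in A2, 5.15 and 5.59 in DAC2, 5.06 and 5.18 in REF2, 6.59 and 6.80 in DAC8 and 7.29 and 7.47 in REF1. Its iPS arrays lay above all arrays of DAC2 and REF2 and below those of DAC8 and REF1. Col19a1 measured 3.12 and 2.66 in A1, 3.21 and 2.86 in A2, 3.66 and 3.36 in DAC2, 3.50 and 3.63 in REF2, 5.17 and 5.09 in DAC8 and 3.50 and 4.17 in REF1, and DAC8 was the 1 line above 5. Col22a1, a collagen of tissue junctions, lay between 4.18 and 5.05 in line means, with the higher values in A1 and A2, and Col20a1 lay below 5 in all line means.

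**Figure D2:**
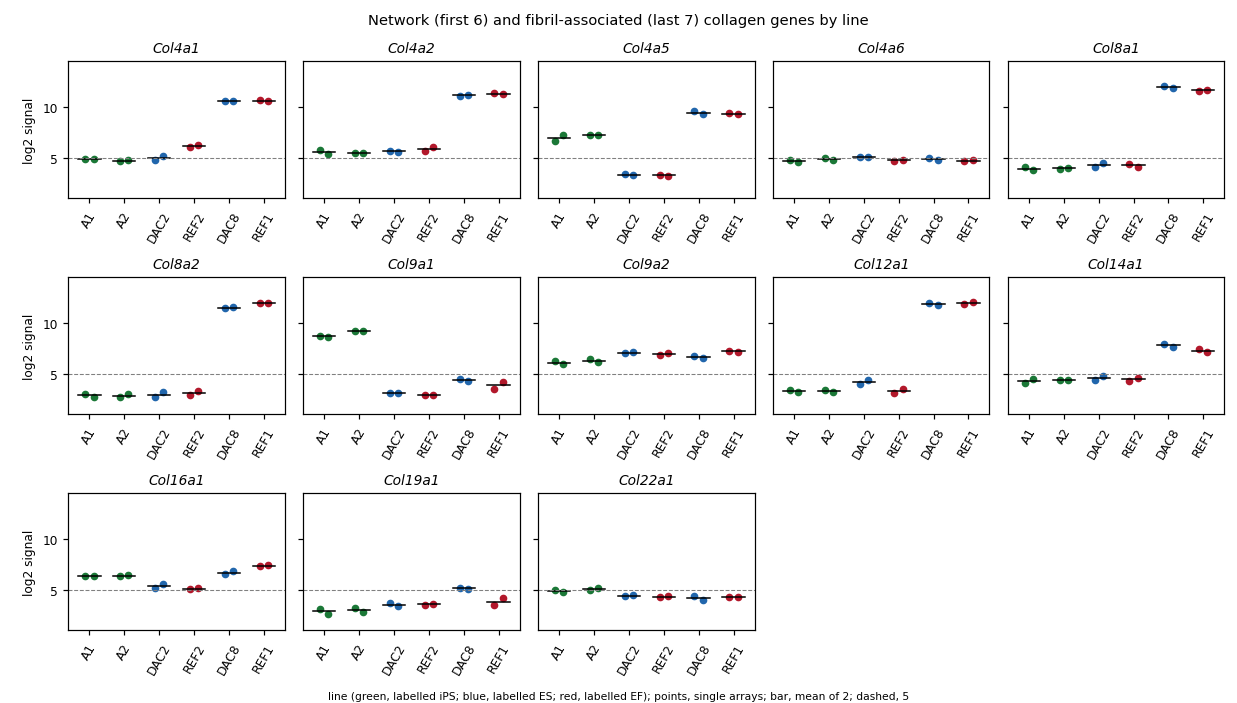
Log2 signal (vertical axis) of the 13 tested network and fibril-associated collagen genes in each line (horizontal axis). Points are single arrays, coloured by label (green iPS, blue ES, red EF), bars the mean of 2 arrays and the dashed line the level of 5. Col9a1 is above 5 in A1 and A2 alone, Col4a5 is low in DAC2 and REF2 alone, and Col8a1, Col8a2 and Col12a1 are above 5 in DAC8 and REF1 alone.

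Type VI collagen, a beaded microfilament around cells, was higher in REF1 than in DAC8. Col6a1 measured 5.65 and 5.05 in A1, 5.41 and 5.14 in A2, 5.62 and 5.71 in DAC2, 5.65 and 5.54 in REF2, 8.90 and 9.11 in DAC8 and 10.64 and 10.57 in REF1. Col6a2 measured 3.18 and 2.98 in A1, 3.10 and 3.01 in A2, 3.48 and 3.56 in DAC2, 2.89 and 3.27 in REF2, 7.52 and 7.42 in DAC8 and 8.93 and 8.96 in REF1. Col6a3 measured 3.86 and 2.99 in A1, 3.09 and 3.34 in A2, 4.53 and 4.60 in DAC2, 5.72 and 5.57 in REF2, 5.10 and 4.62 in DAC8 and 8.82 and 8.78 in REF1. All 3 chains were highest in REF1. DAC8 was second for Col6a1 and Col6a2, but lay below both REF2 arrays for Col6a3. The second probe sets of Col6a2 and Col6a3 spread little between lines, so these patterns rest on 1 probe set each.

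The multiplexins, basement membrane collagens with broken triple helices, were also seen in DAC2 and REF2. Col15a1 measured 4.30 and 4.47 in A1, 4.66 and 4.41 in A2, 5.26 and 5.45 in DAC2, 5.13 and 5.36 in REF2, 8.53 and 8.47 in DAC8 and 9.26 and 9.31 in REF1. Col18a1, the source of endostatin, measured 5.53 and 5.38 in A1, 5.36 and 5.11 in A2, 6.88 and 6.78 in DAC2, 6.40 and 6.35 in REF2, 7.11 and 7.20 in DAC8 and 7.75 and 7.89 in REF1. For both genes the order was REF1, DAC8, then DAC2 and REF2, then the iPS lines. Col26a1 measured 4.88 and 3.80 in A1, 4.36 and 4.32 in A2, 6.52 and 6.44 in DAC2, 6.39 and 6.08 in REF2, 4.23 and 4.27 in DAC8 and 4.26 and 4.48 in REF1, and was above 5 in DAC2 and REF2 alone. Col7a1, the anchoring fibril chain of skin, lay between 4.82 and 5.15. Col6a5, Col6a6, Col13a1, Col17a1, Col23a1 and Col25a1 were below 5 in every line mean and were not tested.

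**Figure D3:**
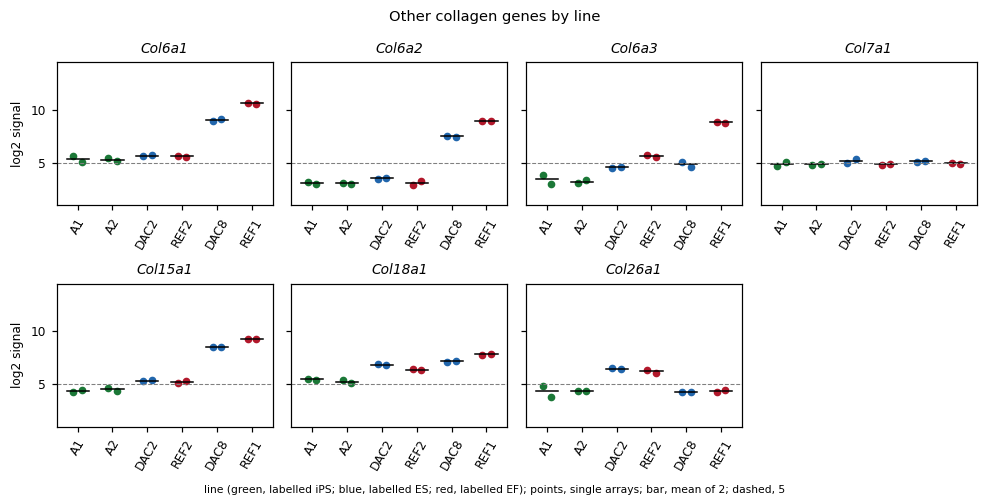
Log2 signal (vertical axis) of the 7 tested collagen genes outside the fibrillar, network and fibril-associated classes, in each line (horizontal axis). Points are single arrays, coloured by label (green iPS, blue ES, red EF), bars the mean of 2 arrays and the dashed line the level of 5. Col6a3 is higher in REF1 than in DAC8, and Col26a1 is above 5 in DAC2 and REF2 alone.

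RefSeq gene order on GRCr8 placed 6 pairs of these genes next to each other, with no other protein-coding gene wholly between them: Col4a1 with Col4a2, Col4a5 with Col4a6, Col6a1 with Col6a2, Col6a5 with Col6a6, Col3a1 with Col5a2 and Col9a1 with Col19a1. For Col4a1 and Col4a2, whose starts lie on either side of the 76 bases printed above, the iPS lines stood at -5.82 ± 0.10 and -5.78 ± 0.12 against REF1 (log2 difference ± SE). The second probe set of Col4a1 stood at -7.38 ± 0.11 (adjusted p = 2.08e-11). For Col4a5 and Col4a6, also read in opposite directions, they stood at -2.23 ± 0.14 and 0.08 ± 0.09. For Col3a1 and Col5a2 they stood at -9.54 ± 0.10 and -3.63 ± 0.07. For Col9a1 and Col19a1 they stood at 5.05 ± 0.15 and -0.87 ± 0.20. For Col6a1 and Col6a2 they stood at -5.30 ± 0.15 and -5.88 ± 0.10, and Col6a5 and Col6a6 were not tested. Col4a5 was called and Col4a6 was not, and Col9a1 was called and Col19a1 was not. Col4a6 and Col19a1 lay below 5 on both sides, so no direction is read for them. A size with 1 side below 5, as for Col4a1, Col3a1, Col6a2 and Col9a1, is at best a lower bound, and no test of the difference between neighbours was run.

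The lines labelled iPS were compared with each other line in turn, each line taken by itself because the markers went against some labels. A gene was called when its limma p-value, adjusted over all 11001 tested genes, was under 0.05 and the difference was at least 2-fold. Against REF1, of the same strain, 22 of 41 collagen genes were lower in iPS and 1 was higher. Over all genes 16.4% were lower and 16.4% higher. Such shares of all genes are over tested genes, whereas 10 of the 41 collagen genes were not tested, so the fractions do not share a denominator. The median difference of the 41 genes was -2.23, against 0.03 for all genes. Lower were 9 of 11 fibrillar, 5 of 8 network, 3 of 9 fibril-associated and 5 of 13 other genes. Genes of the widest ranges in their classes stood at -9.54 ± 0.10 (adjusted p = 4.98e-12) for Col3a1, -9.43 ± 0.11 (adjusted p = 1.03e-11) for Col1a2 and -9.08 ± 0.17 (adjusted p = 9.32e-11) for Col8a2. Col8a1 stood at -7.67 ± 0.13 (adjusted p = 5.44e-11) and Col12a1 at -8.65 ± 0.14 (adjusted p = 5.15e-11). All 5 lay below 5 in the iPS lines, so these values are at best lower bounds and give no rank.

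Where both sides were above 5 on the probe set used, the difference from REF1 is a measured size for that probe set. It was -4.00 ± 0.07 (adjusted p = 5.89e-11) for Col5a1, -3.63 ± 0.07 (adjusted p = 9.08e-11) for Col5a2 and -4.91 ± 0.12 (adjusted p = 4.51e-10) for Col11a1. Col4a5 stood at -2.23 ± 0.14 (adjusted p = 2.65e-07), Col4a2 at -5.78 ± 0.12 (adjusted p = 2.09e-10) and Col18a1 at -2.47 ± 0.08 (adjusted p = 3.42e-09). The second probe set of Col18a1 had means below 5 in A1 (4.95) and A2 (4.54), and the other probe sets of Col11a1 also lay below 5 in the iPS lines. Col9a1 was the 1 higher gene, at 5.05 ± 0.15 (adjusted p = 1.68e-09), with REF1 below 5. This gene was tested only through its A1 and A2 means. Col16a1 was called at -1.02 ± 0.12 (adjusted p = 2.98e-05), close to the 2-fold limit. It fell short of that limit without A2 replicate 1 (-0.996) or without REF1 replicate 2 (-0.93).

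Against DAC2, 6 collagen genes were higher in iPS and 4 lower, where 16.5% and 13.3% of all genes were. The median difference was -0.20, against -0.15 for all genes. By the adjusted p alone 23 were called, where 81.4% of all genes were. Of the 10 called genes, Col2a1, Col3a1 and Col6a3 lay below 5 on both sides, so no direction is read for them. Higher in iPS were Col9a1 at 5.78 ± 0.15 (adjusted p = 8.02e-10), Col5a2 at 4.72 ± 0.07 (adjusted p = 2.87e-11), Col4a5 at 3.79 ± 0.14 (adjusted p = 7.19e-09), Col24a1 at 2.42 ± 0.11 (adjusted p = 2.75e-08) and Col11a1 at 2.30 ± 0.12 (adjusted p = 8.48e-08). DAC2 lay below 5 for each of these 5. Col24a1 was tested only through its A2 mean of 5.37, and both its A1 arrays lay below 5 (4.96 and 4.81). Lower were Col26a1 at -2.14 ± 0.24 (adjusted p = 2.32e-05), with the iPS lines below 5, and Col18a1 at -1.49 ± 0.08 (adjusted p = 1.36e-07). For Col18a1 both sides were above 5 on the probe set used, but the iPS means were below 5 on its second probe set. Not called were the type I genes Col1a1, at -0.57 ± 0.17 (adjusted p = 0.0101), and Col1a2, at -0.84 ± 0.11 (adjusted p = 8.97e-05), and the type IV gene Col4a2, at -0.16 ± 0.12 (adjusted p = 0.256).

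**Figure D4:**
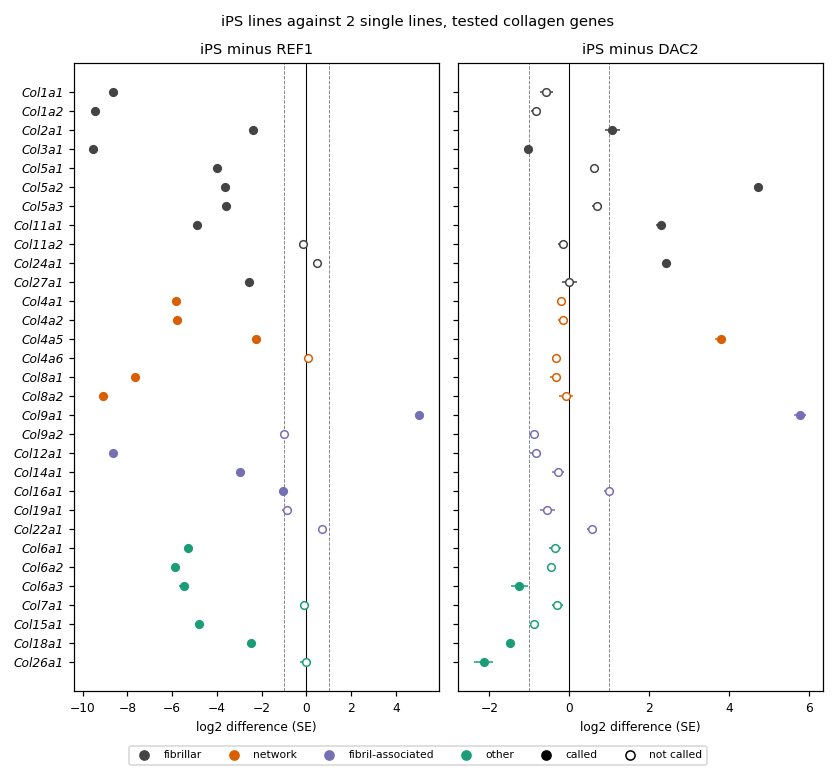
Log2 difference of the iPS lines (mean of A1 and A2) from REF1 (left) and from DAC2 (right) for the 31 tested collagen genes (vertical axis), with bars of 1 SE. Filled points were called, dashed lines mark a 2-fold difference, and 22 genes lie lower against REF1 but 4 against DAC2.

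The remaining line of each label was compared in the same way. Against REF2, 8 collagen genes were higher in iPS and 4 lower, where 15.8% and 15% of all genes were. Col9a1 stood at 6.03 ± 0.15 (adjusted p = 6.26e-10), Col5a2 at 4.81 ± 0.07 (adjusted p = 2.83e-11) and Col4a5 at 3.85 ± 0.14 (adjusted p = 6.49e-09). Col5a1 was also called, at 1.14 ± 0.07 (adjusted p = 2.72e-07), with both sides above 5. Col4a1 stood at -1.39 ± 0.10 (adjusted p = 8.06e-07). Col2a1 was called with both sides below 5, and Col24a1, also among the higher calls, was tested only through A2. By the adjusted p alone 21 genes were called, where 81.1% of all genes were. Against DAC8, 22 were lower and 1, Col9a1, was higher, where 16.2% and 15.6% of all genes were. Col6a3 was among the lower calls with both sides below 5. Col3a1 stood at -9.25 ± 0.10 (adjusted p = 5.34e-12), Col5a2 at -3.45 ± 0.07 (adjusted p = 1.2e-10) and Col9a1 at 4.53 ± 0.15 (adjusted p = 3.51e-09). The 4 comparisons share the iPS arrays, so they are not separate findings.

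By label, as the series was designed, Col9a1 was the 1 collagen gene called. It passed the filter through its A1 and A2 means alone, the lines in which it is then called higher. In iPS against ES it stood at 5.16 ± 0.88 (adjusted p = 0.00609), where 2.98% of all genes were higher and 4.65% called in either direction. In iPS against EF it stood at 5.54 ± 0.88 (adjusted p = 0.00378), where the shares were 3.07% and 5.05%. All 4 iPS arrays lay above all 8 others. Each comparison by label is a contrast within 1 limma fit of all 12 arrays. In that fit arrays of a line were treated as correlated (estimated correlation 0.965). Col3a1 stood at -5.14 ± 2.53 (adjusted p = 0.382) against ES and Col5a2 at 0.63 ± 2.48 (adjusted p = 0.942), each label averaging a line with a high and a line with a low level. Col18a1 stood at -1.65 ± 0.54 (adjusted p = 0.13) against ES and -1.75 ± 0.54 (adjusted p = 0.1) against EF. ES against EF gave 0 calls in limma, 0% of all genes, and 0 collagen genes at an unadjusted p under 0.05. Without the lines DAC8 and REF2, a setting added after the data were seen, 1 collagen gene was higher and 22 lower in iPS against EF, and 6 were higher and 4 lower against ES. Without DAC2 and REF1 the counts were 8 and 4 against EF and 1 and 22 against ES. With either pair out, ES and EF each hold 1 line, so these counts repeat the single-line comparisons and are not separate results.

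Lines that share a label but not a profile differed at most collagen genes. In DAC2 against DAC8, both labelled ES, 23 of 41 genes were lower in DAC2 and 1, Col26a1, was higher. Over all genes 20.4% were lower and 19.8% higher. In REF1 against REF2, both labelled EF, 23 were higher in REF1 and 1, again Col26a1, was lower, where 19.6% and 20.7% of all genes were. Col5a2 stood at -8.17 ± 0.08 (adjusted p = 5.94e-12) in the first and 8.45 ± 0.08 (adjusted p = 5.6e-12) in the second. Across the labels, DAC2 against REF1 gave 22 lower and 1 higher (20.9% and 20.1% of all genes). DAC8 against REF2 gave 23 higher and 1 lower (19.5% and 20.3%). Some of these calls lie below 5 on both sides: Col24a1 in all 4 comparisons, and Col9a1 in those of DAC8.

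Between DAC8 and REF1, both rich in fibroblast collagens, 5 collagen genes were called, 4 of them lower and 1 higher in DAC8, where 0.8% and 0.727% of all genes were. Col6a3 stood at -3.94 ± 0.25 (adjusted p = 2.49e-05), Col5a3 at -2.58 ± 0.14 (adjusted p = 1.06e-05), Col6a1 at -1.60 ± 0.17 (adjusted p = 0.000417) and Col6a2 at -1.47 ± 0.12 (adjusted p = 7.7e-05). By the adjusted p alone 12 genes were called, where 19.8% of all genes were. Col19a1 was higher in DAC8, at 1.30 ± 0.23 (adjusted p = 0.00505), and fell under 2-fold without REF1 replicate 1 (0.96). This gene was tested only through its DAC8 mean of 5.13, and its REF1 mean of 3.83 lay below 5. The type I chains were not called, with Col1a1 at -0.68 ± 0.19 (adjusted p = 0.037) and Col1a2 at -0.40 ± 0.13 (adjusted p = 0.0627), although the second probe set of Col1a1 was called lower, at -1.02 ± 0.10 (adjusted p = 0.000232). Nor were Col3a1, at -0.29 ± 0.11 (adjusted p = 0.0999), Col4a1, at -0.01 ± 0.11 (adjusted p = 0.964), and Col12a1, at -0.15 ± 0.17 (adjusted p = 0.588). The Col6a2 call was lost when its 2 probe sets were averaged (-0.78). Of 8 fibroblast markers 1 was called, Fap, lower in DAC8 at -1.51 ± 0.12 (adjusted p = 7.48e-05), with DAC8 below 5. The marker S100a4 was not called, with means of 12.23 in DAC8 and 11.86 in REF1. Of 9 measured fibril-binding genes 2 were called, both lower in DAC8, where 0.8% of all genes were. These were Lum at -2.62 ± 0.19 (adjusted p = 4.12e-05) and Thbs2 at -1.68 ± 0.07 (adjusted p = 3.19e-06). The cartilage proteoglycan gene Acan, the 1 tested of 4 measured chondrocyte and osteoblast markers, stood at -1.18 ± 0.16 (adjusted p = 0.00143). The summed fibroblast marker level of the 2 lines was 14.26 to 14.31.

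Between DAC2 and REF2, 2 collagen genes were called, both lower in DAC2, where 2.95% of all genes were. Col4a1 stood at -1.19 ± 0.11 (adjusted p = 5.63e-05) and Col6a3 at -1.08 ± 0.25 (adjusted p = 0.00734), with DAC2 below 5 for both. By the adjusted p alone 9 genes were called, where 45.7% of all genes were. Averaging the probe sets of Col6a3 gave -0.60, which was not called. Neighbouring Col4a2 stood at -0.22 ± 0.14 (adjusted p = 0.248). In the same comparison Itga11, a collagen-binding integrin, stood at -2.11 ± 0.12 (adjusted p = 3.28e-06), with DAC2 below 5. It was the 1 gene called of 5 measured collagen receptor genes. Of 8 fibroblast markers 2 were called, both lower in DAC2, where 2.95% of all genes were. The median difference of the 8 was 0.11, against 0.03 for all genes. One of the called markers, Pdgfra, stood at -2.00 ± 0.09 (adjusted p = 1.31e-06), also with DAC2 below 5. The summed level of the parietal endoderm marker list was 9.59 to 9.61 in DAC2 and 10.31 to 10.35 in REF2, with 2 and 3 of its 7 genes at or above 5. It was 10.86 to 10.88 in DAC8 and 10.73 to 10.83 in REF1, so a high sum was not particular to REF2. That list includes Lamb1, also a basement membrane partner, with means of 9.39 and 10.15. Of the 7 genes 3 were tested and 1 was called, the endoderm factor Sox17 at -2.78 ± 0.13 (adjusted p = 1.38e-06), while Gata6 stood at 5.31 in DAC2 and 5.31 in REF2. Sox17 had means of 2.52 in DAC2 and 5.30 in REF2, and was higher still in A1 (6.15) and A2 (6.60). The part of such cells in the collagen levels was not tested.

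Between the iPS lines A1 and A2 limma called 0 of 41 collagen genes, where 0.218% of all genes were called. At an unadjusted p under 0.05 there were 4. Col9a1 stood at -0.52 ± 0.17 (adjusted p = 0.205), Col24a1 at -0.49 ± 0.12 (adjusted p = 0.101), Col3a1 at -0.36 ± 0.11 (adjusted p = 0.183), Col5a2 at 0.04 ± 0.08 (adjusted p = 0.885) and Col4a5 at -0.25 ± 0.16 (adjusted p = 0.56). Leaving out A2 replicate 1 gave 1 call, Col6a6, which otherwise had no line mean of 5 and was not tested.

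**Figure D5:**
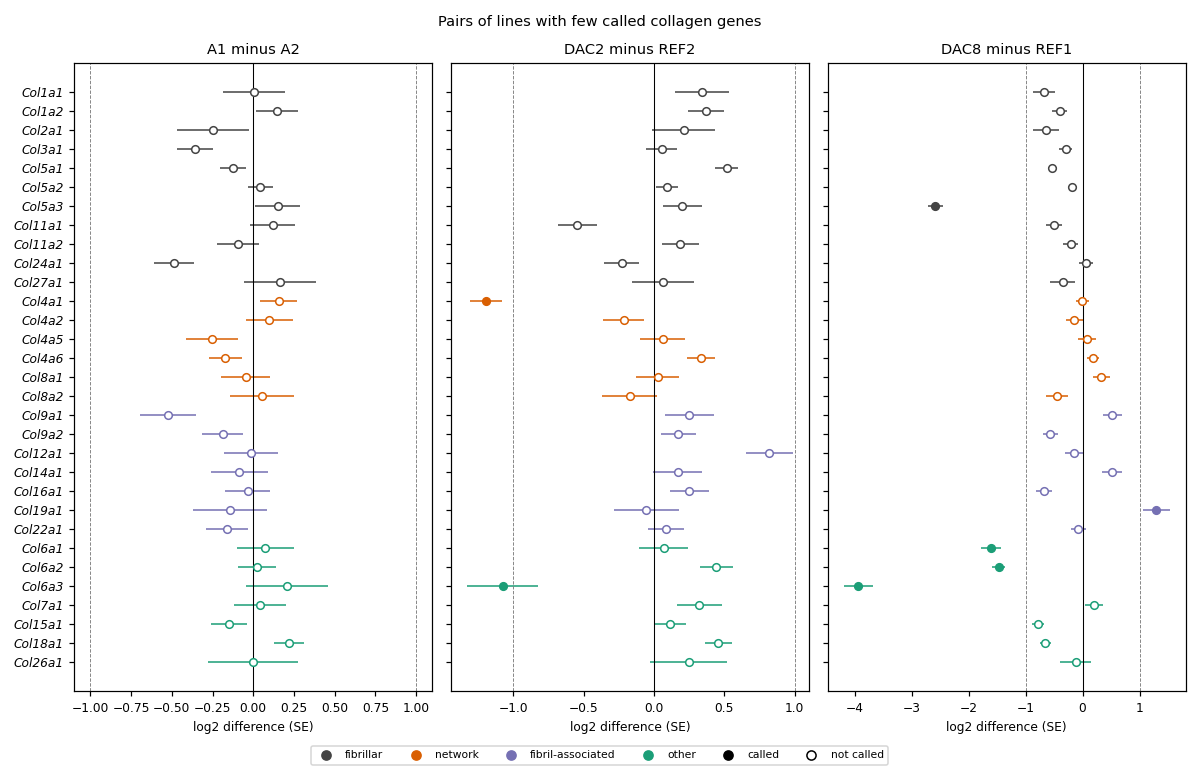
Log2 difference between the lines of 3 pairs for the 31 tested collagen genes (vertical axis), with bars of 1 SE; the horizontal scale differs between panels. Filled points were called: 0 between A1 and A2, 2 between DAC2 and REF2 (Col4a1 and Col6a3) and 5 between DAC8 and REF1.

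Genes whose products build, carry, bind or degrade collagen were counted by the same call. Of 17 measured genes that modify and fold procollagen chains, 13 were lower and 1, Colgalt2, higher in iPS than in REF1, where 16.4% of all genes were lower and 16.4% higher. Against DAC2, 9 were higher and 0 lower, where 16.5% of all genes were higher and 13.3% lower. P4ha3, a prolyl hydroxylase subunit that stabilises the helix, measured 8.19 and 8.38 in A1, 8.25 and 8.17 in A2, 3.78 and 4.02 in DAC2, 4.56 and 4.01 in REF2, 12.27 and 12.23 in DAC8 and 12.20 and 12.25 in REF1. Serpinh1, the collagen chaperone HSP47, measured 9.76 and 9.76 in A1, 8.80 and 8.75 in A2, 7.25 and 7.09 in DAC2, 7.82 and 7.77 in REF2, 12.60 and 12.53 in DAC8 and 12.82 and 12.77 in REF1. Plod1, a lysyl hydroxylase, measured 5.84 and 5.72 in A1, 5.28 and 5.64 in A2, 3.98 and 4.50 in DAC2, 6.00 and 5.87 in REF2, 9.20 and 9.21 in DAC8 and 9.71 and 9.72 in REF1. For P4ha3 and Serpinh1 the iPS arrays lay between DAC8 and REF1 above and DAC2 and REF2 below, while for Plod1 the iPS arrays lay above DAC2 and just below REF2. Serpinh1 stood at -3.53 ± 0.06 (adjusted p = 3.96e-11) against REF1 and 2.10 ± 0.06 (adjusted p = 9.45e-10) against DAC2. It also stood at 0.99 ± 0.06 (adjusted p = 0.000125) in A1 against A2, just under the 2-fold limit.

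Of 9 measured genes for export, propeptide cleavage and cross-linking, 8 were lower and 0 higher in iPS than in REF1, against 16.4% lower and 16.4% higher over all genes. Compared with DAC2, 3 were higher and 0 lower, against 16.5% higher and 13.3% lower over all genes. Lox, which cross-links fibrils, measured 7.62 and 7.41 in A1, 6.96 and 6.94 in A2, 2.53 and 2.63 in DAC2, 2.31 and 2.58 in REF2, 12 and 12.07 in DAC8 and 12.40 and 12.44 in REF1. Loxl2, a related oxidase, measured 7.04 and 7.07 in A1, 6.34 and 6.71 in A2, 3.96 and 3.37 in DAC2, 4.18 and 4.26 in REF2, 11.23 and 11.14 in DAC8 and 11.36 and 11.42 in REF1. The iPS level of both lay between the other pairs of lines, without overlap. Pcolce, which speeds cleavage of the propeptide, measured 5.85 and 6.01 in A1, 5.81 and 5.87 in A2, 5.43 and 5.38 in DAC2, 5.04 and 5.13 in REF2, 12.03 and 12.07 in DAC8 and 12.16 and 12.18 in REF1, and the iPS lines lay near DAC2 and far under REF1 for this gene.

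Among 10 measured genes of collagen degradation, 7 were lower and 1 higher in iPS than in REF1, against 16.4% lower and 16.4% higher over all genes. Compared with DAC2, 4 were higher and 2 lower, against 16.5% higher and 13.3% lower over all genes. Mmp2, the gelatinase A gene, measured 8.18 and 8.15 in A1, 8.45 and 8.45 in A2, 3.65 and 3.40 in DAC2, 3.38 and 3.65 in REF2, 12.11 and 12.02 in DAC8 and 11.99 and 12 in REF1. It stood at 4.79 ± 0.09 (adjusted p = 9.35e-11) in iPS against DAC2. Mmp16, a membrane-bound protease, stood at 4.08 ± 0.10 (adjusted p = 6.91e-10), and Timp2, a protease inhibitor, at 0.96 ± 0.06 (adjusted p = 3.83e-07), not called. Of 5 measured collagen receptor genes 4 were lower and 0 higher in iPS than in REF1, against 16.4% lower and 16.4% higher over all genes. Itga11 stood at -7.70 ± 0.10 (adjusted p = 1.87e-11), the receptor kinase gene Ddr2 at -5.67 ± 0.09 (adjusted p = 4.87e-11) and the integrin gene Itga1 at -5.17 ± 0.13 (adjusted p = 6.29e-10). Against DAC2, Ddr2 at 0.08 ± 0.09 (adjusted p = 0.427) and Itga1 at 0.02 ± 0.13 (adjusted p = 0.919) were not called, with both sides below 5.

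Of 9 measured fibril-binding proteoglycans and glycoproteins, 7 were lower and 0 higher in iPS than in REF1, against 16.4% lower and 16.4% higher over all genes. Compared with DAC2, 1 was higher and 2 lower, against 16.5% higher and 13.3% lower over all genes. Ogn stood at -7.42 ± 0.15 (adjusted p = 1.61e-10) against REF1, Lum at -7.49 ± 0.16 (adjusted p = 2.11e-10) and Bgn at -5.59 ± 0.10 (adjusted p = 9.48e-11). Basement membrane partners were less uniform: of 12 measured, 8 were lower and 3 higher in iPS than in REF1, against 16.4% lower and 16.4% higher over all genes. Compared with DAC2, 3 were higher and 2 lower, against 16.5% higher and 13.3% lower over all genes. Lama1, a laminin chain of the early embryo, measured 6.2 and 6.19 in A1, 6.08 and 6.10 in A2, 10.49 and 10.53 in DAC2, 10.53 and 10.45 in REF2, 4.20 and 4.70 in DAC8 and 4.35 and 3.99 in REF1. It was highest in DAC2 and REF2 and below 5 in DAC8 and REF1, the lines with the highest Col4a1 and Col4a2. Lama4, a laminin chain of mesenchyme and vessels, measured 6.13 and 6.10 in A1, 5.73 and 5.88 in A2, 3.60 and 4.12 in DAC2, 3.91 and 3.64 in REF2, 9.80 and 9.46 in DAC8 and 10.21 and 10.23 in REF1, highest in DAC8 and REF1 as the type IV chains were. Nid1, which links laminin to type IV collagen, stood at -3.02 ± 0.06 (adjusted p = 9.48e-11) against REF1 and -2.74 ± 0.06 (adjusted p = 1.96e-10) against DAC2.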

How the data were processed

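The deposited table gives log2 signals of 31099 probe sets in 12 arrays. Per the submitters' processing notes, the authors used RMA and Partek 6.2. Background correction and normalization across arrays are part of RMA, and differences of dim or near-saturated genes can come out compressed. It is not stated whether 1 RMA run took in every array. The log2 values were used as deposited, from 1.45 to 14.12. Array medians were 5.28 to 5.41, and the number of arrays limits the precision.

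Probe sets were named by the platform's gene table, and 20832 had 1 gene symbol. Genes with no line mean of 5 were left out, which left 11001, of which 31 were collagen genes. The other 10 members are given as values. Some genes were tested only through the lines in which they are then called higher. These include Col9a1 (A1 and A2), Col26a1 (DAC2 and REF2) and the 9 genes at or above 5 in DAC8 and REF1 alone. The filter favours such calls. The comparison of lines used limma (version 3.58.1, under R 4.3.3), a factor of 6 lines, 6 residual degrees of freedom and Benjamini-Hochberg adjustment. The iPS side is the mean of A1 and A2. Labels were compared with the line as a random block. On simulated arrays the line fit recovered nearly all changes of 2-fold or more, while the label fit with the line block missed most changes of 4-fold or less. The simulated spread between lines was fixed and smaller than at many collagen genes here. Col3a1, for example, had means of 4.73 in DAC2 and 12.94 in DAC8. The simulated shares thus do not describe those genes, and a low count by label shows little. The filter uses line means, since a label's mean joins unlike lines. Members whose per-array values are given were, in each class, the 4 with the widest range of line means, and those called between A1 and A2, DAC2 and REF2 or DAC8 and REF1. The other members are given by means or range, with some per-array values added after they were seen. List genes named were the 3 with the widest range, and others were chosen after their values were seen. The members and lists were chosen with earlier results of these data known. Alternatives were other filters, normalizations, probe set rules, an intensity trend, the p-value alone, a replicate block, fewer arrays in the fit, line means, no line block and each array left out.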

Additional observations from a re-analysis of the deposited data

Results flagged for a closer look

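The collagen genes picked by the range or line-pair rule above gave 63 groups of 4 arrays of 1 label. Of these, 3 held an array far from its nearest neighbour by Dixon's test. Col5a1, Col4a2, Col18a1 and Col26a1 were not among the genes checked. Chance flags about 1 group in 20 when the 4 arrays are alike. The ES and EF groups each join unlike lines. Where those lines lay at different levels no single array could stand apart, so that rate does not apply to the 63 groups. Col4a5 measured 6.68 in A1 replicate 1, below the other 3 iPS arrays. Col5a3 measured 4.95 in A2 replicate 1, below the other 3 iPS arrays. Col6a3 measured 5.10 in DAC8 replicate 1, above the other 3 arrays labelled ES.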

How the results depend on the processing

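Of 331 recounts of collagen calls under another setting, 311 stayed within 1.5 times the reported count and 20 did not. Differences were followed only for genes picked by the range or line-pair rule and already called, most of them chosen for a wide range. Settings that changed only the filter, the intensity trend or the p-value rule left the difference itself unchanged, so it could not reverse there. Of 2974 such refitted differences, 0 reversed, 2959 kept their call and 15 fell under the 2-fold limit with an adjusted p still under 0.05. Those of Col5a3 in iPS against DAC8 ranged down to -0.77, without DAC8 replicate 1. By the adjusted p alone the counts were 23 for iPS against DAC2, 21 against REF2, 9 for DAC2 against REF2 and 12 for DAC8 against REF1. With no filter on low values they were 1 for A1 against A2 (Col6a6) and 3 for iPS against EF by label. With the mean of probe sets they were 1 for DAC2 against REF2, 2 for iPS against EF and 2 for iPS against ES. Every probe set gave 2 for iPS against EF, and no line block gave 3 for iPS against EF and 3 for iPS against ES. The added genes by label were Col18a1, Col6a3 and Col19a1.

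Without the lines DAC8 and REF2 the counts by label were 10 for iPS against ES, 23 for iPS against EF and 23 for ES against EF. Without DAC2 and REF1 they were 23, 12 and 24. Both settings were chosen after seeing the data and leave ES and EF with 1 line each, so their counts repeat those of single lines. Leaving out 1 array gave 0 to 1 for A1 against A2, with the 1 call without A2 replicate 1. It gave 1 to 2 for iPS against EF, with the second, Col6a3, called without A1 replicate 1. Where a line kept 1 array, that array was assumed to vary like the others. A replicate block changed no count by over 1.5 times: it gave 23 calls for iPS against REF1, 10 for iPS against DAC2 and 5 for DAC8 against REF1. The replicate numbers are not taken to pair arrays, as deviations correlated at -0.08 to 0.24 over 15 pairs of lines. Leaving out 1 array gave 10 to 11 for iPS against DAC2, 11 to 13 against REF2, 22 to 23 against DAC8, 23 to 24 against REF1, 2 to 3 for DAC2 against REF2 and 4 to 5 for DAC8 against REF1. The cause of the moved counts was not tested. Levels below 5 give at best lower bounds.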

Other observations

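Among the 10 collagen genes under the level of 5 in every line mean, some still spread between lines. Col6a6, a chain related to type VI, measured 2.95 and 3.72 in A1, 4.68 and 5.23 in A2, 2.65 and 2.71 in DAC2, 2.81 and 2.80 in REF2, 2.31 and 2.58 in DAC8 and 2.35 and 2.50 in REF1. Its single array above 5 was A2 replicate 2. Col13a1, a transmembrane collagen of muscle and nerve contacts, measured 3.89 and 4.08 in A1, 3.27 and 3.39 in A2, 4.72 and 4.48 in DAC2, 3.67 and 3.54 in REF2, 2.79 and 2.59 in DAC8 and 2.75 and 2.45 in REF1. Col25a1, a transmembrane collagen of neurons, measured 4.10 and 3.92 in A1, 3.07 and 3.58 in A2, 2.07 and 2.15 in DAC2, 2.11 and 2.20 in REF2, 3.66 and 3.81 in DAC8 and 4.60 and 4.85 in REF1. These values are given without a test or a direction.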
